A study of Mus musculus with 6 samples.

Results

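RNA sequencing values were analysed for 10 genes that write, maintain, oxidise or remove DNA methylation, out of 21684 genes in the deposited table: Dnmt1, Dnmt3a, Dnmt3b, Uhrf1, Tet1, Tet2, Tet3, Idh1, Idh2 and Tdg. They were listed by function, with earlier results of these data known, by matching their symbols to the gene name column, and all 10 were found. The cells were primary haematopoietic cells from the bone marrow of mice. They had received an empty vector, the control, in 3 libraries and RUNX1-RARA in the other 3, a fusion of the blood transcription factor RUNX1 with the retinoic acid receptor RARA found in a variant of acute promyelocytic leukaemia. The labels give no strain, age, sorting step, time after transduction or number of mice, and do not say that replicates were separate cultures, so the p-values reflect the variation among these libraries and no more, and it may be technical. Values are FPKM, fragments scaled to the length of the gene and to the mapped fragments of the library. They can be compared between genes only as far as the length used fits the transcripts present.

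DNA methylation is set on CpG sites by the de novo methyltransferases DNMT3A and DNMT3B and copied at each round of replication by DNMT1, which UHRF1 guides to half-methylated DNA. TET dioxygenases oxidise 5-methylcytosine, and the glycosylase TDG excises the later oxidation products so that base excision repair can restore cytosine. TET enzymes need 2-oxoglutarate, which the NADP-dependent isocitrate dehydrogenases IDH1 in the cytosol and IDH2 in mitochondria produce. Mutations in DNMT3A, TET2, IDH1 and IDH2 recur in human myeloid leukaemia, and loss of the mouse Dnmt3a or Tet2 gene expands haematopoietic stem and progenitor cells.

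Most genes of the table differed between the groups. With a linear model in limma on log2(FPKM + 1), 77.7% of 10901 tested genes passed a Benjamini-Hochberg adjusted p of 0.05 (46.0% higher and 31.7% lower in RUNX1-RARA), and the groups did not overlap for 79.1%. Changes of at least 2-fold on that scale were less common, 6.12% higher and 9.72% lower. Over all tested genes the median of the log2 fold changes was 0.11. The 5 pan-haematopoietic genes summed to between 946 and 1009 FPKM in the controls and between 594 and 619 FPKM with RUNX1-RARA. The 8 mature neutrophil genes summed to between 12043 and 14243 FPKM in the controls and to 175 to 191 FPKM with the fusion, and the 7 monocyte and macrophage genes to between 4440 and 4496 and between 212 and 220 FPKM. Of 6 progenitor genes, 3 were higher and 2 lower of 5 tested. Their sum was lower, between 1491 and 1604 FPKM in the controls and between 1032 and 1143 FPKM with RUNX1-RARA. The 7 T and NK cell genes, the 5 B cell genes and the 7 stromal and endothelial genes summed to at most 1.27 FPKM in any library. Of the 8 erythroid and megakaryocyte genes, 1 was higher and 1 lower of 2 tested. In such bulk samples fewer cells of a type and less RNA per cell cannot be told apart. The part that cell composition plays in each value given here was not tested.

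Of the 10 enzymes, 9 had at least 1 FPKM in at least 3 libraries and were tested, and Tet1 was not. Dnmt3b and Idh2 rose, Idh1, Tet3 and Tdg fell, and Dnmt1, Uhrf1, Dnmt3a and Tet2 did not pass the test. After TMM scaling 2 rose and 5 fell, and with library sums taken without mitochondrially encoded and mature neutrophil genes 5 rose and 1 fell. All tested genes shifted with these scalings too: 37.3% were called higher and 38.4% lower after TMM scaling, and 60.5% higher and 23.3% lower with the reduced sums. The share of tested enzymes called was 5 of 9 beside 77.7% of all tested genes, 7 of 9 beside 75.7% after TMM scaling, and 6 of 9 beside 83.8% with the reduced sums. The groups did not overlap for 6 of the 9, beside 79.1% of all tested genes. Dnmt3b alone was at least 2-fold higher and 0 were at least 2-fold lower, beside 6.12% and 9.72% of all tested genes. The median log2 fold change of the 9 enzymes was -0.03, beside 0.11 over all tested genes.

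**Figure D1:**
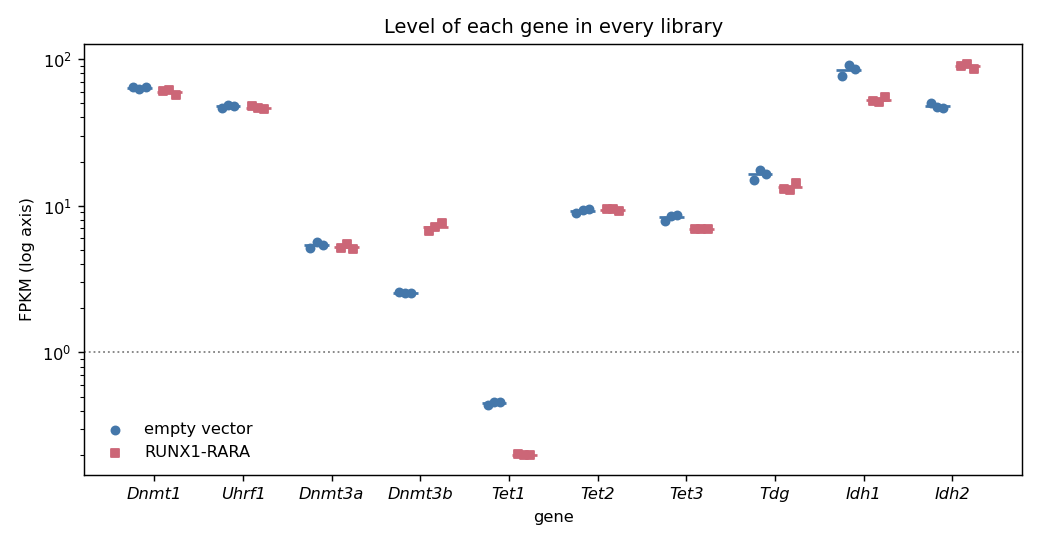
FPKM of the 10 genes in every library on a log axis, with circles for the 3 empty vector libraries, squares for the 3 RUNX1-RARA libraries, a bar at each group mean and a dotted line at 1 FPKM. Dnmt3b and Idh2 lie higher and Idh1, Tet1, Tet3, Tdg and, by little, Dnmt1 lower in all 3 RUNX1-RARA libraries. Tet1 alone lies under the line.

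Dnmt3b, which encodes a de novo methyltransferase, had the largest change among the tested enzymes. The gene (ENSMUSG00000027478) lies on chromosome 2 from 153649450 to 153687730 on mm10. Its level was 2.56, 2.52 and 2.55 FPKM in empty vector replicates 1, 2 and 3 and 6.73, 7.15 and 7.65 FPKM in RUNX1-RARA replicates 1, 2 and 3. Every RUNX1-RARA library was thus far above every control, and the controls hardly differed among themselves. The mean rose 2.82-fold from 2.54 ± 0.0192 to 7.18 ± 0.461 FPKM (mean ± SD, n = 3 each), and the log2 fold change on the log2(FPKM + 1) scale was 1.20 (SE 0.0614, adjusted p = 3.24e-08 by limma). Among all tested genes, 11.2% had a larger absolute log2 fold change. Dnmt3c, a rodent paralogue next to Dnmt3b, stayed at 0.03 FPKM or less in every library. The values are per gene, so transcripts that encode active and inactive forms of DNMT3B were not separated.

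Dnmt3a, the other de novo methyltransferase gene (ENSMUSG00000020661, chromosome 12, 3806007 to 3914443), did not pass the test. It stood at 5.12, 5.63 and 5.35 FPKM in the 3 empty vector libraries and at 5.18, 5.44 and 5.10 FPKM in the 3 with RUNX1-RARA. The groups overlapped, and the log2 fold change of -0.03 had a 95% interval from -0.16 to 0.10 (limma adjusted p = 0.669). With library sums taken without mitochondrial and neutrophil genes the direction turned and Dnmt3a was called higher (0.15, adjusted p = 0.0371). Dnmt3a shares 133 bases of exon with the antisense gene Dnmt3aos, and a pseudogene of it is annotated, so a small part of its reads may not be its own.

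In FPKM, the order of the 2 de novo enzyme genes was therefore inverted. Dnmt3a was 2.00, 2.23 and 2.10 times Dnmt3b in empty vector libraries and 0.769, 0.760 and 0.667 times Dnmt3b in RUNX1-RARA libraries. The log2 ratio went from 1.08 ± 0.0791 to -0.45 ± 0.114 (mean ± SD, n = 3 each), a difference of -1.53. The exact two-sided permutation test gave p = 0.1, the smallest that 3 libraries against 3 allow, and 0.1 after Benjamini-Hochberg adjustment over 5 ratio and share tests. The summed level of the pair rose from 7.91 ± 0.235 to 12.4 ± 0.447 FPKM, and the Dnmt3b share of it from between 31.0% and 33.4% to between 56.5% and 60.0%. This ratio is taken within a library, so scaling between libraries does not alter it. Which gene stands higher depends on the lengths used, and the annotated exons span 16642 bases for Dnmt3a and 5106 for Dnmt3b. The change of the ratio between the groups does not depend on these lengths.

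**Figure D2:**
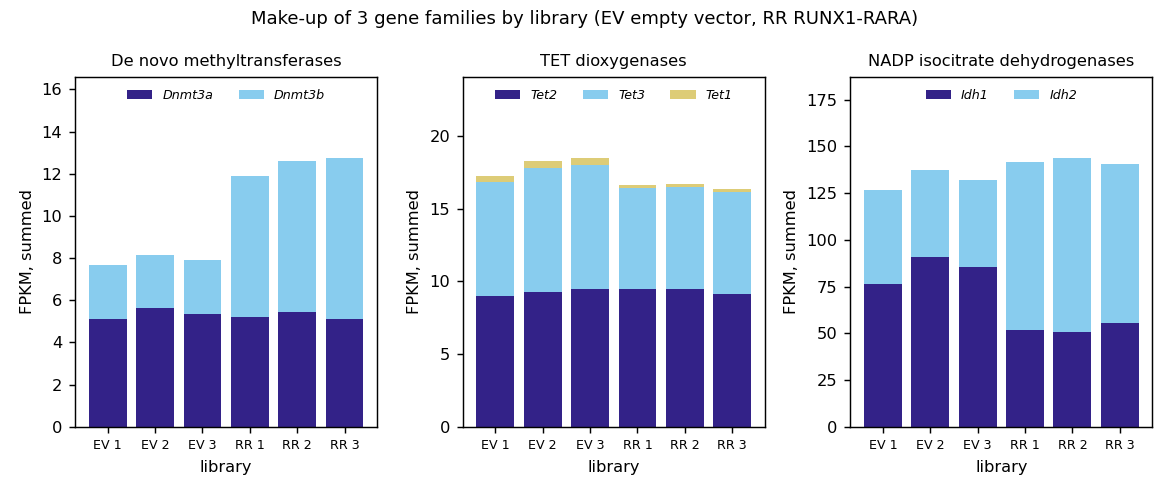
Stacked bars of FPKM in each library for the de novo methyltransferase genes, the TET genes and the NADP isocitrate dehydrogenase genes, with EV for empty vector and RR for RUNX1-RARA. The Dnmt3b bar grows on an almost level Dnmt3a bar, the summed IDH bars stay between 127 and 144 FPKM while their makeup turns over, and Tet2 holds the largest TET share in every library.

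The maintenance pair stayed abundant. Dnmt1 (ENSMUSG00000004099, chromosome 9, 20907209 to 20959888), the maintenance methyltransferase gene, stood at 64.0, 62.5 and 64.8 FPKM in the controls and at 60.9, 61.0 and 56.6 FPKM with RUNX1-RARA. All 3 RUNX1-RARA values lay under all 3 controls, yet the log2 fold change of -0.10 (95% interval -0.22 to 0.02, limma adjusted p = 0.114) did not pass. Uhrf1 (ENSMUSG00000001228, chromosome 17, 56303321 to 56323486), which encodes the hemimethylated CpG reader, stood at 46.5, 48.7 and 47.6 FPKM in the controls and at 47.5, 46.5 and 45.8 FPKM with RUNX1-RARA. The groups overlapped, with a log2 fold change of -0.03 (95% interval -0.14 to 0.08, adjusted p = 0.592). After TMM scaling, which centres the median gene near 0, both were called lower (Dnmt1 -0.22, adjusted p = 0.00353, Uhrf1 -0.16, adjusted p = 0.0128), and with library sums taken without mitochondrial and neutrophil genes Uhrf1 was called higher (0.18, adjusted p = 0.00533), so their direction depends on the scaling.

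Expression of both genes is known to peak in S phase, so 20 genes of S phase and proliferation are given beside them. Of these, 9 rose and 3 fell in RUNX1-RARA cells, with a median log2 fold change of 0.07, after TMM scaling 4 rose and 8 fell, and with sums without mitochondrial and neutrophil genes 16 rose and 2 fell. That is 12, 12 and 18 of 20 called, beside 77.7%, 75.7% and 83.8% of all tested genes under the same scalings, and the balance of higher and lower calls over all tested genes, given above, moved the same way. Leaving out RUNX1-RARA replicate 3 gave 7 and 4. Mki67, 1 of the 3 that fell (log2 fold change -0.25), is a general proliferation gene. So is Top2a, the added lower call when that replicate was left out (-0.18, limma adjusted p = 0.0245). The ribonucleotide reductase gene Rrm2 fell from 167 ± 7.63 to 95.1 ± 3.92 FPKM and the DNA polymerase epsilon gene Pole rose from 8.99 ± 0.271 to 15.0 ± 0.283 FPKM (mean ± SD, n = 3 each), both named after their values were seen.

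Among the oxidising enzymes the 3 TET genes behaved differently. Tet2 (ENSMUSG00000040943, chromosome 3, 133463679 to 133545139), whose product is often lost in myeloid disease, was the most abundant and stood at 8.97, 9.27 and 9.45 FPKM in the controls and at 9.45, 9.48 and 9.14 FPKM with RUNX1-RARA. The groups overlapped, with a log2 fold change of 0.02 (95% interval -0.10 to 0.14, limma adjusted p = 0.764). The sign turned after TMM scaling (-0.10, adjusted p = 0.118), and Tet2 was called higher with the reduced library sums (0.21, adjusted p = 0.00391). Tet3 (ENSMUSG00000034832, chromosome 6, 83362373 to 83459084) stood at 7.85, 8.51 and 8.57 FPKM in the controls and at 6.98, 6.98 and 6.97 FPKM with RUNX1-RARA. The 3 RUNX1-RARA values were nearly equal and under every control. Tet3 fell by 0.22 on the log2(FPKM + 1) scale (SE 0.0564, adjusted p = 0.00444), and its mean was 16.0% lower. This call ended with library sums taken without mitochondrial and neutrophil genes (log2 fold change -0.03, adjusted p = 0.621). Tet2 shares 43 bases of exon with the antisense gene Gm42567.

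Tet1 (ENSMUSG00000047146, chromosome 10, 62804570 to 62908996), a TET gene known from embryonic stem cells, was low throughout. It stood at 0.436, 0.459 and 0.462 FPKM in the controls and at 0.204, 0.200 and 0.199 FPKM with RUNX1-RARA. The groups did not overlap, and the mean went from 0.452 ± 0.0142 to 0.201 ± 0.00265 FPKM (mean ± SD, n = 3 each), a ratio of 2.25. With read depths estimated from the steps between low values, these levels correspond to between 237 and 605 reads in empty vector libraries. In RUNX1-RARA libraries they correspond to between 84.2 and 125 reads. By these estimates, which are not firm, the low level did not rest on single reads. Without the filter on low values, where 61.2% of 16289 genes were called, Tet1 was called lower, and the log2 fold change was -0.27 (SE 0.0181, adjusted p = 2.12e-05 by limma). The added 1 FPKM shrinks the change of so low a gene, and with 0.1 FPKM added the log2 fold change was -0.88.

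Within the TET family, Tet2 took between 50.8% and 52.0% of the summed FPKM in the controls and between 56.0% and 56.9% with RUNX1-RARA. The Tet3 share went from between 45.5% and 46.6% to between 41.9% and 42.7%, and the Tet1 share from between 2.50% and 2.53% to between 1.20% and 1.23%. For each of these 3 shares the groups did not overlap, and the exact two-sided permutation p was 0.1, the smallest possible with 3 libraries per group (0.1 after adjustment over the 5 tests). The summed TET level was 17.99 ± 0.652 FPKM in the controls and 16.5 ± 0.195 FPKM with RUNX1-RARA (mean ± SD, n = 3 each).

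Tdg (ENSMUSG00000034674, chromosome 10, 82629828 to 82650799), the glycosylase gene, fell moderately. It stood at 14.9, 17.6 and 16.5 FPKM in the controls and at 13.1, 12.8 and 14.2 FPKM with RUNX1-RARA. The groups did not overlap, but the gap between the lowest control and the highest RUNX1-RARA library was smaller than the range within either group. Tdg fell by 0.27 on the log2(FPKM + 1) scale (SE 0.0694, limma adjusted p = 0.00478), and its mean was 18.2% lower. The call ended with library sums taken without mitochondrial and neutrophil genes (log2 fold change -0.07, adjusted p = 0.355). Tdg overlaps Glt8d2 by 367 exon bases on the opposite strand, which stayed at 0.158 FPKM or less, and a near copy of Tdg is annotated, so its level is uncertain where reads could map to both.

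The 2 isocitrate dehydrogenase genes moved in opposite directions. Idh1 (ENSMUSG00000025950, chromosome 1, 65158616 to 65186500), the cytosolic enzyme gene, stood at 76.6, 90.7 and 85.5 FPKM in the controls and at 52.0, 50.9 and 55.5 FPKM with RUNX1-RARA. All 3 RUNX1-RARA values lay well under the controls. Idh1 fell by 0.66 on the log2(FPKM + 1) scale (SE 0.0694, limma adjusted p = 8.91e-06), from 84.3 ± 7.13 to 52.8 ± 2.38 FPKM (mean ± SD, n = 3 each), 37.4% lower.

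Idh2 (ENSMUSG00000030541, chromosome 7, 80094846 to 80115392), the mitochondrial enzyme gene, stood at 50.3, 46.8 and 46.5 FPKM in the controls and at 89.5, 93.0 and 85.2 FPKM with RUNX1-RARA. The groups were separated by a gap several times the spread within either. Idh2 rose 1.87-fold from 47.8 ± 2.12 to 89.3 ± 3.91 FPKM (mean ± SD, n = 3 each), and the log2 fold change was 0.89 (SE 0.0574, adjusted p = 2.12e-07 by limma). A larger absolute change was found for 19.2% of all tested genes.

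The summed level of both dehydrogenase genes was 132 ± 5.30 FPKM in the controls and 142 ± 1.69 FPKM with RUNX1-RARA (mean ± SD, n = 3 each), so the pair changed far less than its makeup. Idh1 was 1.52, 1.94 and 1.84 times Idh2 in empty vector libraries and 0.581, 0.547 and 0.651 times Idh2 in RUNX1-RARA libraries. The Idh2 share of the pair went from between 34.0% and 39.6% to between 60.6% and 64.6%. The log2 ratio of Idh1 to Idh2 fell by 1.57, with an exact two-sided permutation p of 0.1, the smallest possible, and 0.1 after adjustment.

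By level, the order in empty vector libraries was Idh1, Dnmt1, Idh2, Uhrf1, Tdg, Tet2, Tet3, Dnmt3a, Dnmt3b and Tet1, and Idh2 and Uhrf1 were the only neighbours whose libraries overlapped. In RUNX1-RARA libraries it was Idh2, Dnmt1, Idh1, Uhrf1, Tdg, Tet2, Dnmt3b, Tet3, Dnmt3a and Tet1, and only Dnmt3b and Tet3 overlapped. Idh1 and Idh2 exchanged places at the top of the order, with Dnmt1 between them, and Dnmt3b lay above Dnmt3a in every RUNX1-RARA library while its range overlapped that of Tet3.

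**Figure D3:**
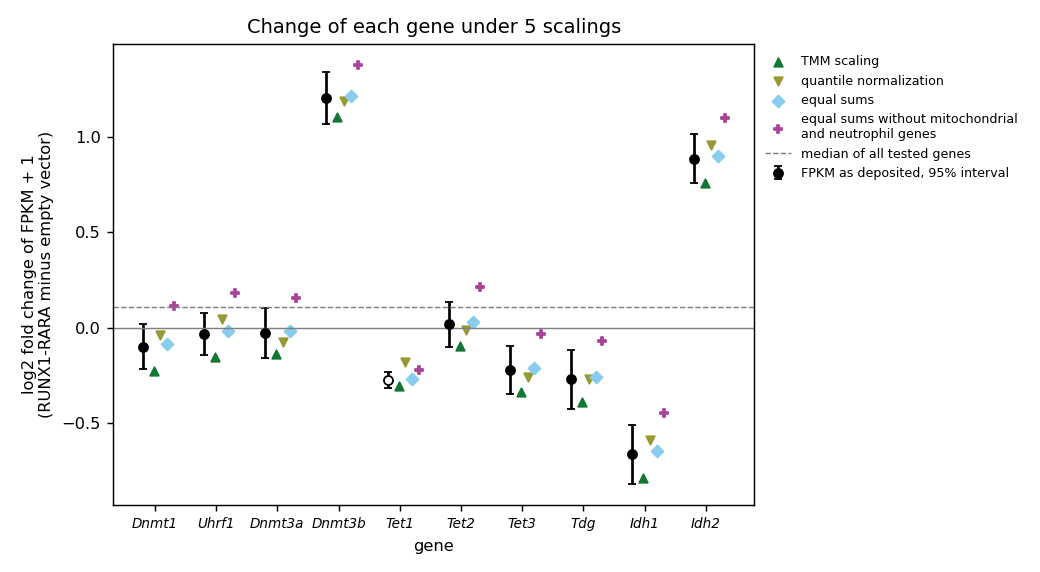
Log2 fold change (RUNX1-RARA minus empty vector) of FPKM + 1 for each gene, with the 95% interval of the limma fit on the deposited values (open circle for Tet1, fitted without the filter on low values) and the value under 4 other scalings. Dnmt3b and Idh2 stay above 0 and Idh1, Tet1, Tet3 and Tdg below 0 under all 5, while Dnmt1, Uhrf1, Dnmt3a and Tet2 fall on both sides of 0. Tet3 and Tdg come nearest to 0 with sums without mitochondrial and neutrophil genes.

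The sequence before the RefSeq transcript start is shown for Dnmt3b, Idh2 and Tet1, the genes whose mean FPKM differed most in relative terms. All 10 enzymes matched the RefSeq promoter table (GRCm38.p6, windows of 250 bases before to 50 bases after a start). The 250 bases before the start are printed 5′ to 3′ on the gene's strand, with CpG, the dinucleotide that DNA methyltransferases modify, in capitals. They cover chr2:153649199-153649448 (plus strand), chr7:80115351-80115600 (minus strand) and chr10:62887325-62887574 (minus strand). The Tet1 stretch lies inside the gene interval given above, whose 5′ end on the minus strand is 62908996. It thus precedes an internal RefSeq start, not the outermost annotated one. The last bases of the Idh2 stretch, from 80115392 to 80115351, also lie inside the Idh2 gene interval. The RefSeq start used for Idh2 is therefore not the outermost annotated one either.
Dnmt3b: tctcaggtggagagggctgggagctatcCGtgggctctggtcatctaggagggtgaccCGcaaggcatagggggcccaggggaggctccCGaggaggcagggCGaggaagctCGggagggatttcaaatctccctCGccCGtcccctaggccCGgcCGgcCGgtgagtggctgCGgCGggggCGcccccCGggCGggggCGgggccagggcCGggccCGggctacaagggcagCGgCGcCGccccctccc
Idh2: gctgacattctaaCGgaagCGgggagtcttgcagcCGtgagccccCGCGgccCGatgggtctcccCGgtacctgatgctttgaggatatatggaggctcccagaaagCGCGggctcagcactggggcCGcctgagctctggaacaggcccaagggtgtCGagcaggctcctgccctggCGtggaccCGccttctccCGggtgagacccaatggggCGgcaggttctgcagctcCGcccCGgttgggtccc
Tet1: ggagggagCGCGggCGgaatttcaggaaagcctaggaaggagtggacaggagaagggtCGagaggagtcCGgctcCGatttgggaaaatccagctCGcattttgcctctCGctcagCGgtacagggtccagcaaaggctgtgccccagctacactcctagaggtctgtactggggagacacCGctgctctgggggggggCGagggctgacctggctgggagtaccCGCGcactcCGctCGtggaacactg

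These stretches hold 21, 17 and 15 CpG. In the full windows of 300 bases Dnmt3b has 30 CpG, Idh2 20 and Tet1 17, against a median of 7 over all 32851 windows. High CpG counts were shared by enzymes that did not pass the test: Tet2 has 57, more than 99.8% of windows, and the first Dnmt3a window has 46. No methylation was measured, so these counts describe the sequence only.

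The windows were also searched on both strands for TGTGGT and TGCGGT, core letters bound by RUNX factors, and for AGGTCA, the half-site of retinoic acid receptors. The RUNX letters occur in 22.4% of all windows and the half-site in 16.3%. Of the 3 genes shown, Idh2 holds 1 RUNX match after the start (chr7:80115306-80115335, minus strand), Tet1 holds 1 half-site before it (chr10:62887351-62887380, minus strand), and Dnmt3b holds neither. The matches are given with flanking bases, with the matched letters, read on the other strand, in capitals.
Idh2: cctagagtccccACCGCAcagcccggtgca
Tet1: gggggcgagggcTGACCTggctgggagtac

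A match is a description of letters and no binding was measured. Among the other enzymes, 1 of the Uhrf1 windows holds a RUNX match and 1 Uhrf1 and 1 Dnmt3a window hold a half-site.

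Genes that work with these enzymes were examined in 10 lists, beside the 77.7% of all tested genes that were called. Genes in lists outside the enzymes are named where they were called and changed at least 2-fold on the log2(FPKM + 1) scale, and any others were named after their values were seen. Of 8 genes encoding proteins that bind unmethylated CpG through a CXXC domain, 6 of 7 tested rose and 0 fell, or 6 and 1 after TMM scaling. Cxxc5, which encodes a CXXC zinc finger protein, had the largest rise, from 2.63 ± 0.305 to 12.2 ± 0.688 FPKM (mean ± SD, n = 3 each), and the log2 fold change was 1.87 (SE 0.0749, adjusted p = 4.98e-09 by limma). It stood at 2.29, 2.86 and 2.74 FPKM in the controls and at 11.5, 12.8 and 12.4 FPKM with RUNX1-RARA, with no overlap. The list's median log2 fold change was 0.41, beside 0.11 over all tested genes.

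Partners of maintenance methylation split, 3 higher and 2 lower of 9, with a median of 0.01, and 2 and 3 after TMM scaling or 7 and 1 with sums without mitochondrial and neutrophil genes. The UHRF1 paralogue gene Uhrf2 rose 1.40-fold to 26.1 ± 2.21 FPKM, and the PCNA-associated factor gene Pclaf fell from 169 ± 2.64 to 111 ± 3.32 FPKM (mean ± SD, n = 3 each). The chromatin remodeller gene Hells stood at 31.2 and 31.6 FPKM. Of 10 de novo partners and histone H3K36 or H3K9 methyltransferase genes, 6 rose and 2 fell. These counts were 4 and 2 after TMM scaling and 8 and 2 with sums without mitochondrial and neutrophil genes. Dnmt3l, which encodes a catalytically inactive cofactor of de novo methylation, went from 1.84 ± 0.157 to 0.992 ± 0.188 FPKM (limma adjusted p = 1.81e-04), opposite in direction to Dnmt3b. The H3K9 methyltransferase genes Setdb1 and Ehmt2 rose 1.69-fold and 1.66-fold.

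Of 8 genes listed as methyl-CpG readers, 4 rose and 2 fell of 7 tested. What each listed protein binds, that of Mbd3 included, was not checked. The counts became 4 and 1 with equal sums and 5 and 1 with sums without mitochondrial and neutrophil genes. Leaving out any 1 library other than RUNX1-RARA replicate 3 left 3 or 4 higher and 1 lower. The lower call then lost was that of Zbtb33, a methyl-CpG binding zinc finger gene (limma adjusted p between 0.0517 and 0.125). The higher call of Mbd4 was lost when any library but empty vector replicate 2 was left out (limma adjusted p between 0.0591 and 0.123). The reader gene Mbd2 was the most changed, falling from 85.2 ± 1.16 to 53.4 ± 1.25 FPKM (mean ± SD, n = 3 each). TET partners and regulators rose in 3 of 5 tested, among them Ogt, the O-GlcNAc transferase that binds TET proteins, from 63.0 ± 2.70 to 80.8 ± 2.00 FPKM, while 0 fell. After TMM scaling 2 rose, since the call of Oga, another gene of this list, was lost (limma adjusted p = 0.381). With sums without mitochondrial and neutrophil genes all 5 rose.

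All 12 tested base excision repair and related genes changed, 7 higher and 5 lower, or 7 and 4 with sums without mitochondrial and neutrophil genes. All 3 Gadd45 genes, stress-induced factors linked to demethylation, were lower: Gadd45g fell from 6.24 ± 0.792 to 1.95 ± 0.816 FPKM (log2 fold change -1.32, SE 0.162, limma adjusted p = 2.96e-05), Gadd45a 2.06-fold and Gadd45b 1.45-fold. The glycosylase gene Neil1 rose 2.46-fold, the abasic site endonuclease gene Apex1 1.90-fold from 39.9 ± 3.97 to 75.8 ± 0.855 FPKM, and the scaffold gene Xrcc1 1.87-fold, whereas Neil3, a glycosylase gene of dividing cells, fell 1.49-fold.

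Genes of 2-oxoglutarate and 2-hydroxyglutarate metabolism were 13 higher and 3 lower of 18, with a median of 0.29. After TMM scaling they were 9 and 5, and with sums without mitochondrial and neutrophil genes 14 and 1, shifts in the same direction as those of all tested genes. Of the NAD-dependent isocitrate dehydrogenase subunit genes, Idh3g rose 1.64-fold to 83.7 ± 6.69 FPKM. Idh3b and Idh3a rose 1.22-fold and 1.12-fold, but after TMM scaling both calls were lost (log2 fold changes 0.15 and 0.04, adjusted p = 0.0517 and 0.514). The Idh3a call was also lost when empty vector replicate 1 was left out (adjusted p = 0.0856), and likewise for RUNX1-RARA replicate 1 (0.0655) and 3 (0.0519). D2hgdh, whose product oxidises D-2-hydroxyglutarate, rose 1.56-fold. The mitochondrial citrate carrier gene Slc25a1 rose 1.86-fold.

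The methionine cycle, which supplies S-adenosylmethionine to the methyltransferases, had 9 genes higher and 1 lower of 11 tested, and 6 and 1 after TMM scaling. Ahcy, which encodes the hydrolase that clears S-adenosylhomocysteine, the product that inhibits methyltransferases, rose 2.37-fold. It stood at 27.1, 26.1 and 25.3 FPKM in the controls and at 60.9, 64.8 and 60.6 FPKM with RUNX1-RARA, and the log2 fold change was 1.22 (SE 0.0535, adjusted p = 1.04e-08 by limma). The spermidine synthase gene Srm rose 2.23-fold from 37.2 ± 0.478 to 82.9 ± 10.9 FPKM (mean ± SD, n = 3 each), and the S-adenosylmethionine synthetase gene Mat2a 1.18-fold from 84.3 FPKM, a call lost after TMM scaling (adjusted p = 0.0875).

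Among cytosine deaminase and other methyltransferase genes, 3 rose and 2 fell of 5 tested. Apobec1, the RNA-editing cytidine deaminase gene, fell 5.80-fold from 15.4 ± 0.859 to 2.65 ± 0.166 FPKM (mean ± SD, n = 3 each, log2 fold change -2.17, SE 0.0637, limma adjusted p = 4.44e-10).

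**Figure D4:**
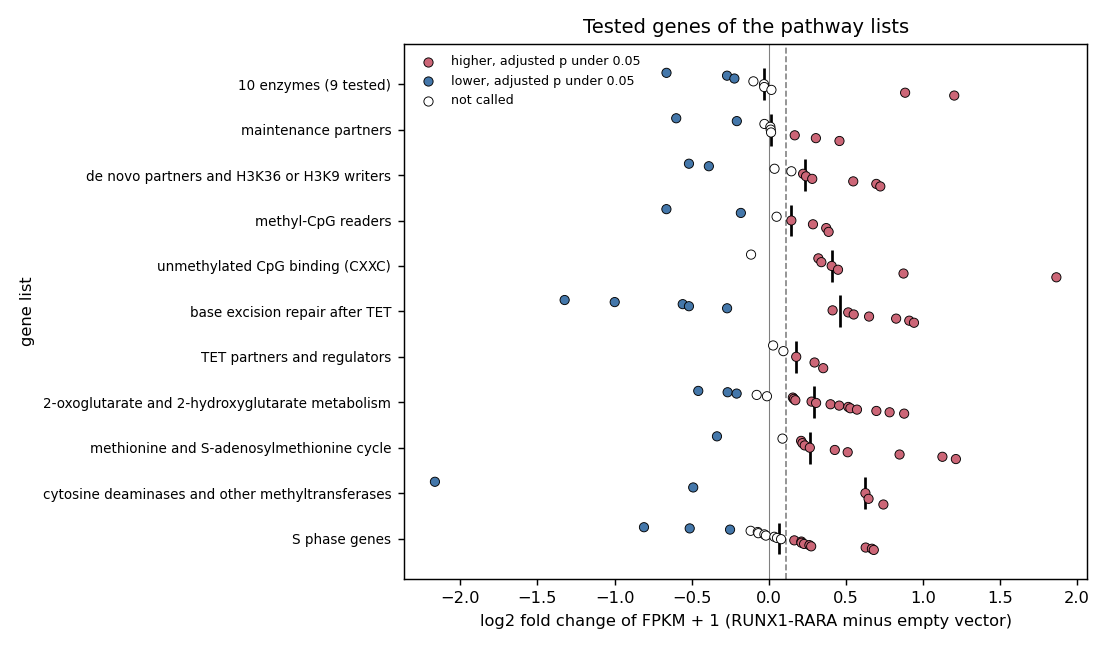
Log2 fold change (RUNX1-RARA minus empty vector) of FPKM + 1 for every tested gene of the 10 enzymes and of 10 wider lists, coloured by call at an adjusted p of 0.05, with a bar at each list's median and a dashed line at the median of all tested genes, 0.11. The enzymes' median, -0.03, is the lowest of the rows, Cxxc5 is the farthest point to the right and Apobec1 the farthest to the left.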

How the data were processed

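The deposited values are FPKM computed by the authors for 6 libraries, rounded to 3 decimals. The submitters' processing notes list DESeq2 1.32.0, featureCounts 2.0.1, HISAT2 2.2.1 and fastp 0.22.0, and the builds mm10 and hg38 without roles. Not given in the sources used here are the annotation, the strand setting and the treatment of multi-mapping reads. Columns were tied to samples by the names the labels quote, and groups came from the genotype label.

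Genes with at least 1 FPKM in at least 3 of 6 libraries were tested with limma 3.58.1 in R 4.3.3 on log2(FPKM + 1), with trended moderation and Benjamini-Hochberg adjustment over all 10901. The fit was also run on simulated data in which few genes changed. Most genes differ in these data, so that run does not show how the fit performs on them. FPKM depend on the library sum, so abundant genes shift all others. Fold changes on this scale understate low genes. Folds and percentages are ratios of mean FPKM.

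Depth was estimated by fitting whole reads to low FPKM multiplied by GENCODE M21 exon length (21540 genes with a length). The estimates were 26.7 to 89.8 M reads, with between 86.9% and 89.9% of low values within 0.1 of a whole number (20% by chance). Not nearly all were whole, so no count test was run. Of the near-whole values, between 66.7% and 70.8% were even, and multiples of a depth fit as well. Neither absolute nor relative depths are therefore firm. Positions are from GENCODE M21 on GRCm38 (mm10).

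The enzymes and the 10 wider and 8 marker lists were chosen with earlier results of these data known. All 175 listed genes were found. Outside the enzymes, up to 4 genes per wider list that were called and changed at least 2-fold on the log2(FPKM + 1) scale were named by rule. Alternatives changed the pseudocount, filter, scaling, replicate block and libraries.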

Additional observations from a re-analysis of the deposited data

How the results depend on the processing

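The calls and directions of Dnmt3b (log2 fold change 1.10 to 1.46), Idh2 (0.76 to 1.10) and Idh1 (-0.79 to -0.45) held under all 13 alternatives, with adjusted p of at most 1.90e-04 in limma. Small changes depended on scaling, which moved the median of all tested genes from 0.11 to -0.0037 (TMM) or 0.30 (sums without mitochondrial and neutrophil genes). The cause was not tested.

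After TMM scaling Dnmt1 (-0.22) and Uhrf1 (-0.16) became called and Tet2 turned to -0.10. After quantile normalization Uhrf1 turned to 0.044 and Tet2 to -0.014. With sums taken without mitochondrial and neutrophil genes, Dnmt1 turned to 0.11 without a call, and Dnmt3a (0.15) and Uhrf1 (0.18) turned and became called higher. Tet2 became called (0.21), and Tet3 (-0.031) and Tdg (-0.067) lost their calls. Under these sums 2 of 9 tested enzymes were called at least 2-fold higher, beside 1016 of all 10901 tested genes. Of the partners tested, 8 of 9 for maintenance and 5 of 5 for TET were called, beside 83.8% of all tested genes. Leaving out 1 library at a time gave -0.057 to 7.3e-04 for Dnmt3a and -4.5e-04 to 0.034 for Tet2.

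Tet1, untested in the planned fit, was called lower without the filter (-0.27). In settings added after seeing the data, all without the filter, it was called with 0.1 FPKM added (-0.88), TMM (-0.30), quantile normalization (-0.18), equal sums (-0.27), sums without mitochondrial and neutrophil genes (-0.22), the replicate block (-0.27), and each library left out (-0.28 to -0.27).

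Same-numbered libraries did not deviate together (r of deviations across genes 0.02, -0.37 and -0.06). Differently numbered libraries gave -0.31 to 0.40. Deviations from a mean of 3 libraries are tied to each other, so these values cannot decide whether the numbers pair the samples. With the replicate number as a block, 5 of 9 tested enzymes were called, as without it, beside 75.5% of all tested genes. Idh3a, outside the enzymes, was not called with the block (adjusted p = 0.0570 by limma). Leaving out a library also reduced the genes tested. Depth was only estimated, so no counting intervals are given.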
